A study of Mus musculus with 21 samples.

Results

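Colon tumours of wild-type male mice were compared with normal colon of wild-type male mice across all genes of a table of RNA sequencing counts. The comparison takes the 3 tumour and the 3 normal colon libraries that the sample labels assign to wild-type males, 6 of the 21 libraries of the series. All 6 come from C57BL/6 males and share the wild-type genotype. The labels give AOM/DSS as the treatment of the tumour libraries, a regimen of the carcinogen azoxymethane with dextran sulfate sodium, a detergent-like polymer that ulcerates the colon lining. They give the normal libraries as not treated. The text of the series speaks instead of tissue adjoining a tumour, or of colon from animals in which none grew, and the sources used here do not settle which of these each normal library is. Age, dose and time of sampling are not given in the sources used here. Libraries of wild-type females, and of males with the App NL-G-F knock-in allele of the amyloid precursor protein gene, also C57BL/6 with the same treatment labels, were used to test whether the tumour effect differed. Nothing in the labels says that the 3 libraries of a group came from separate animals, so p-values measure only the spread between these samples, which may be technical.

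Azoxymethane damages the DNA of crypt cells, and the tumours of this model are known for mutations that stabilise beta-catenin. In the healthy crypt, Wnt signals hold beta-catenin stable at the base, where stem cells divide, and cells that leave the base mature into absorptive colonocytes, goblet cells, enteroendocrine cells and tuft cells. Beta-catenin acts with TCF/LEF factors on target genes, several of which encode inhibitors of the pathway itself. Beneath the epithelium lie the fibroblasts and vessels of the lamina propria, and beneath these the muscle layers with enteric neurons, glia and pacemaker cells.

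The libraries held from 3414123 to 20944610 gene counts, with tumour 2 the smallest and normal colon 1 the largest. Levels are given as CPM, counts relative to the library size after TMM scaling (trimmed mean of M values), and always in the order of replicate numbers 1, 2 and 3. At 3 counts the floor was 0.872 CPM in tumour 2 and from 0.142 to 0.298 CPM in the other 5, a limit of counting error only. The ribosomal RNA precursor Rn45s took 6.67% ± 1.69 (SD, n = 3) of the counts in normal colon and 11.3% ± 1.91 (SD, n = 3) in tumours, without overlap (two-sided exact permutation p = 0.1, the smallest that 3 against 3 libraries allow). The epithelial adhesion gene Epcam stood at 1135, 1308 and 1502 CPM in normal colon and 928, 817 and 1047 CPM in tumours, so epithelial RNA was present in all 6 libraries. Epcam was lower in every tumour (log2 fold change -0.50 ± 0.12, edgeR adjusted p = 0.00442), as were the colonocyte and goblet lists described below.

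The 3 tumour libraries resembled each other more than normal colon 3 resembled normal colon 1 and 2. Across genes, which do not replicate each other, Pearson's r between libraries on log2 CPM ran from 0.9677 to 0.9812 between tumours. It was 0.9679 between normal colon 1 and 2, and 0.958 and 0.9586 between these and normal colon 3. The biological coefficient of variation was 15.1% in tumours and 27.4% in normal colon. Among genes above a mean of 10 CPM, the median coefficient of variation of CPM was 9.58% in tumours and 10.7% in normal colon. On the first principal component, which held 67.4% of the variance of the 6 libraries, normal colon lay at -48.2, -33.7 and -98.6 and tumours at 58.2, 76.6 and 45.7. Normal colon 3 therefore stood apart from the other two normal libraries, on the side away from the tumours. It was the normal library farthest from the tumours for 2067 of the 2622 genes called higher in tumours (78.8%) and for 2303 of the 3075 genes called lower (74.9%). Some list counts below moved by more than 1.5 times when 1 library was left out, and are then given with and without it.

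That spread in normal colon was also seen in genes chosen without the male libraries' own contrast. In wild-type females, tumours had 898 genes called higher and 878 called lower with a change of at least 4-fold, with the spread of all 21 libraries pooled in the test. In wild-type males the summed CPM of the 898 genes was 17455, 21116 and 8485 in normal colon and 47144, 49143 and 44716 in tumours. The 2 male groups did not overlap, and normal colon 1 and 2 held more than 2 times the sum of normal colon 3. In wild-type female normal colon, which served to choose the genes, the sums were 4644, 4557 and 4691. The 878 lower genes summed to 63340.0, 71335 and 101403 CPM in male normal colon and to 14074, 13470.0 and 16759 CPM in male tumours. What sets normal colon 3 apart was not tested.

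**Figure D1:**
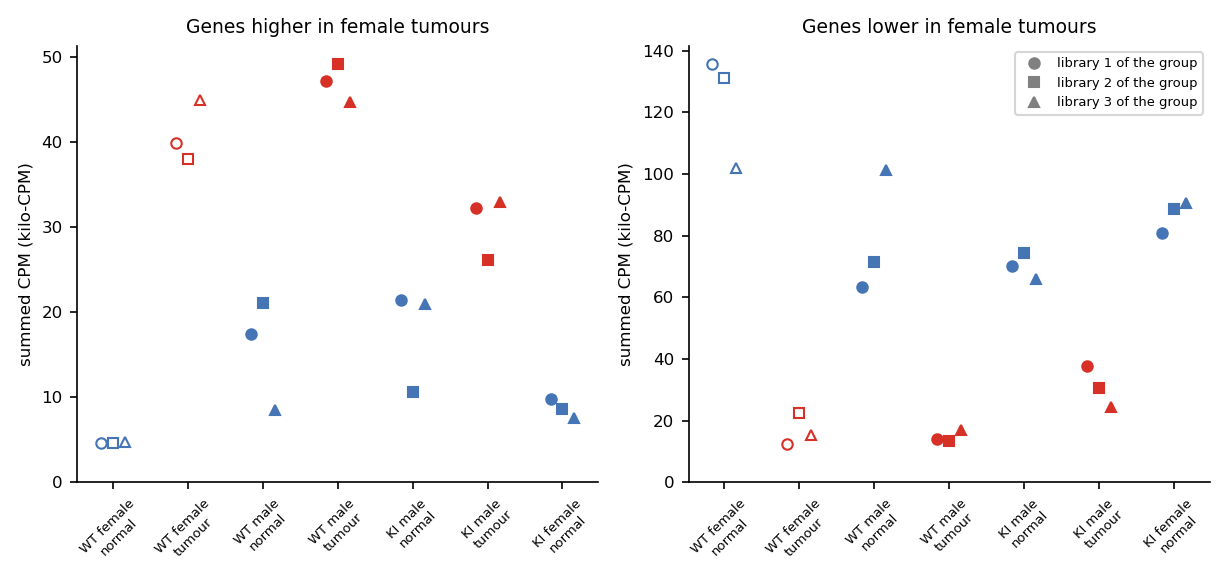
Summed CPM, as kilo-CPM on the vertical axes, of the 898 genes at least 4-fold higher (left) and the 878 genes at least 4-fold lower (right) in wild-type female tumours, for each library of each group (blue, normal colon, red, tumour). Open symbols mark the libraries used to choose the genes. In wild-type male (WT) normal colon the higher genes ran from 8485 to 21116 CPM, and in knock-in (KI) male normal colon from 10578 to 21423.

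Of 15936 genes tested, 5697 (35.7%) differed between wild-type male tumour and normal colon in edgeR's quasi-likelihood test at a Benjamini-Hochberg adjusted p under 0.05. Of all genes tested, 16.5% were called higher and 19.3% lower in tumours. The list counts below are to be read beside these shares, which several lists came near. Decreases were the larger changes. The median log2 fold change was 0.78 among genes called higher and -1.085 among genes called lower, and 272 genes rose and 700 fell by at least 4-fold. Over all genes tested the median was 0.0054. CPM did not overlap between the groups for 8348 genes (52.4%) and for 5542 of the 5697 called (97.3%). Without normal colon 3 the test called 1448 genes higher and 2211 lower, and without tumour 1 it called 1737 higher and 2499 lower. Calls in the opposite direction were 0 in both cases.

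Among genes with a mean of at least 100 counts in 1 group, the 10 largest decreases were in Aqp8, Kcna1, Cyp2c55, Slc30a10, Car4, Chrm2, Slc26a3, C7, Btnl1 and Des. The water channel gene Aqp8 stood at 80.1, 79.8 and 243 CPM in normal colon and 3.60, 1.16 and 4.69 CPM in tumours, and normal colon 3 was the highest (log2 fold change -5.24 ± 0.61, edgeR adjusted p = 2.3e-05). Car4, a carbonic anhydrase of the colonocyte surface, stood at 243, 233 and 598 CPM in normal colon and 10.7, 3.49 and 14.7 CPM in tumours (log2 fold change -5.10 ± 0.59, edgeR adjusted p = 1.97e-05). Every tumour library lay below every normal library for both genes. Slc26a3, the chloride and bicarbonate exchanger of the colon surface, went from 271, 273 and 1011 CPM in normal colon to 18.0, 6.40 and 23.4 CPM in tumours (log2 fold change -4.95 ± 0.74, edgeR adjusted p = 0.000158). The cytochrome P450 gene Cyp2c55 went from 165, 237 and 741 to 10.7, 11.1 and 10.03 CPM (log2 fold change -5.17 ± 1.03, edgeR adjusted p = 0.00144). Normal colon 3 was again the highest for both, and no tumour library came near the lowest normal library. The M2 muscarinic receptor gene Chrm2 and the butyrophilin-like gene Btnl1, which is known to act on intraepithelial lymphocytes, fell as well. Chrm2 stood at 17.1, 8.23 and 21.6 CPM in normal colon and 0.360, 0 and 0.736 CPM in tumours (log2 fold change -5.08 ± 0.59, edgeR adjusted p = 1.14e-05), and tumour 2 held no count of it. Btnl1 stood at 12.7, 8.90 and 28.5 CPM in normal colon and 0.432, 0 and 0.920 CPM in tumours (log2 fold change -4.89 ± 0.69, edgeR adjusted p = 5.84e-05). The potassium channel gene Kcna1 (-5.19 ± 0.71, edgeR adjusted p = 3.85e-05), the metal transporter gene Slc30a10 (-5.11 ± 1.21, edgeR adjusted p = 0.00406) and the complement gene C7 (-4.90 ± 0.91, edgeR adjusted p = 0.000589) fell on the log2 scale, and Des is given with the muscle genes.

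The largest increases had smaller folds and came from genes of several kinds. Msln, which encodes mesothelin, a surface protein of mesothelium and of several carcinomas, stood at 6.89, 3.59 and 0.895 CPM in normal colon and 44.8, 28.2 and 43.5 CPM in tumours (log2 fold change 3.30 ± 0.62, edgeR adjusted p = 0.000714). Hdc, which makes histamine, stood at 9.06, 3.67 and 0.398 CPM in normal colon and 26.7, 50.6 and 51.1 CPM in tumours (log2 fold change 3.22 ± 0.72, edgeR adjusted p = 0.00272). Neither gene overlapped between the groups, and normal colon 3 was the lowest for both. Hmox1, the inducible heme oxygenase, stood at 9.77, 14.7 and 5.77 CPM in normal colon and 55.6, 139 and 59.4 CPM in tumours (log2 fold change 3.04 ± 0.43, edgeR adjusted p = 7.4e-05), with tumour 2 above the other tumours. Fras1, which encodes an extracellular matrix protein, stood at 28.5, 11.6 and 3.28 CPM in normal colon and 100.2, 140.5 and 117 CPM in tumours (log2 fold change 3.0 ± 0.69, edgeR adjusted p = 0.00363). The transcription cofactor gene Dach2 rose by 3.16 ± 0.74 (edgeR adjusted p = 0.00367) and the autophagy gene Atg9b by 3.0 ± 0.85 (edgeR adjusted p = 0.0127) on the log2 scale. Irx4, which encodes a homeobox factor, stood at 9.49, 9.58 and 0 CPM in normal colon and 49.4, 72.1 and 77.9 CPM in tumours (log2 fold change 3.34 ± 1.19, edgeR adjusted p = 0.0395). Irx4 lost its call without tumour 1, 2 or 3 or normal colon 1, 2 or 3 (edgeR adjusted p 0.0653 to 0.103) and with the replicate number as a block (edgeR adjusted p = 0.0543). Cxcl2, Cxcl1 and Mmp9, also among the 10 largest increases, are described below with their groups.

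**Figure D2:**
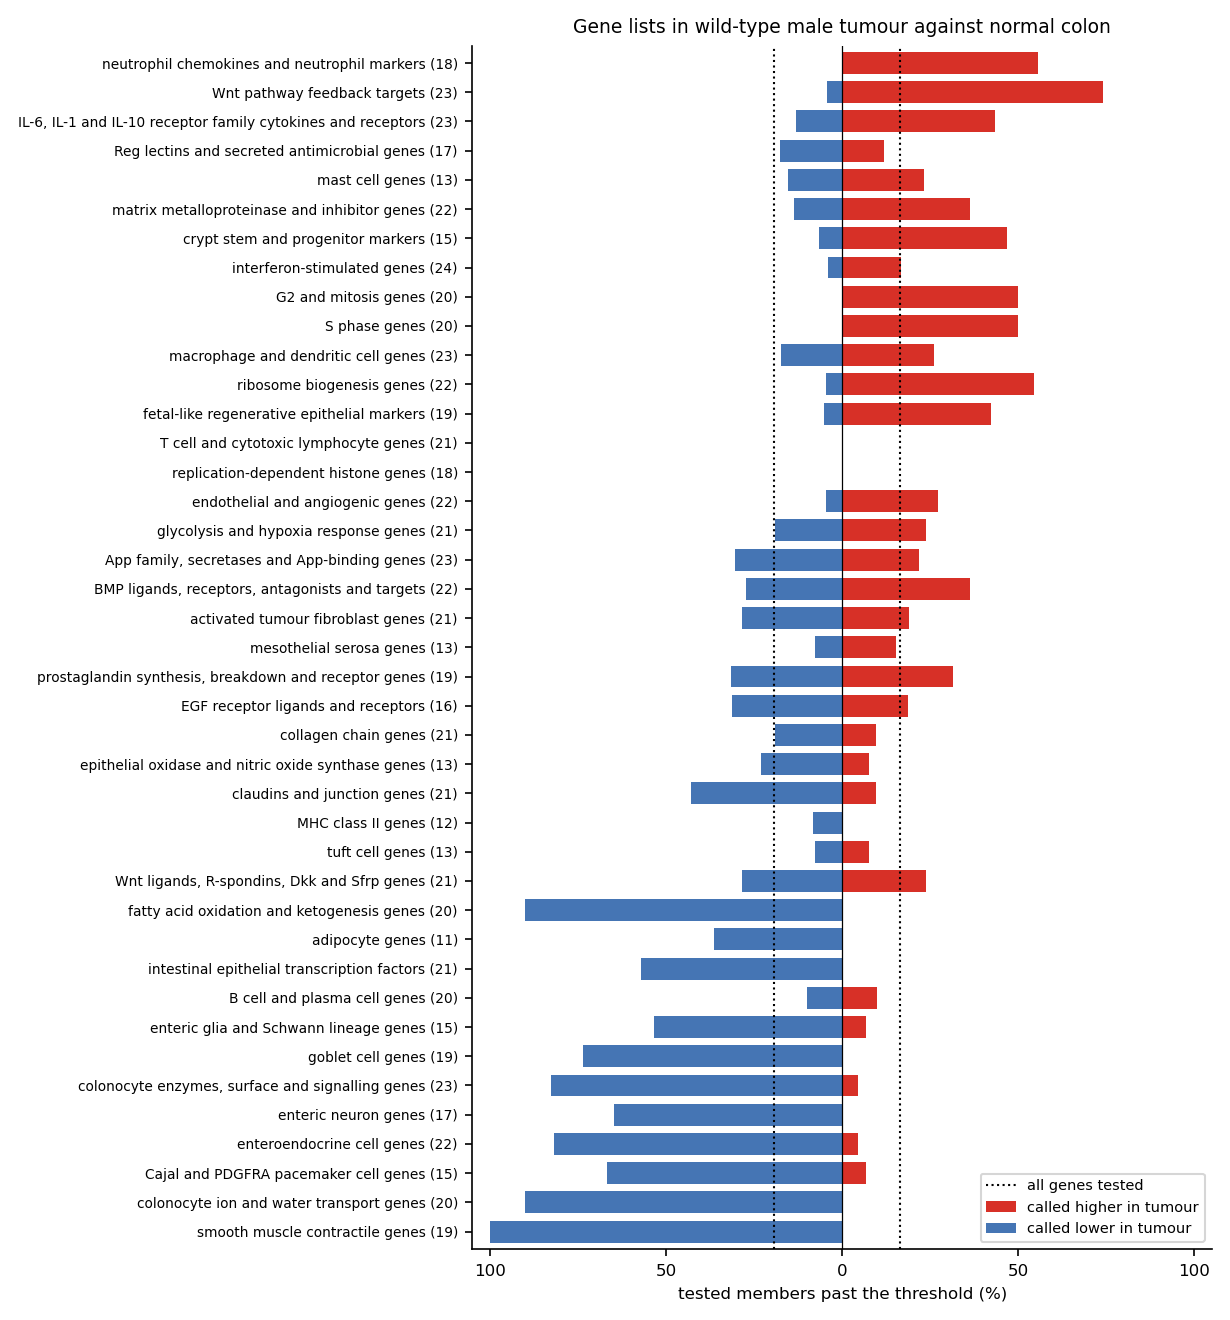
Percentage of the tested members of each of 41 gene lists (number tested in brackets) that were called higher (red, right) or lower (blue, left) in wild-type male tumours, ordered by median log2 fold change. Dotted lines mark all genes tested, 16.5% higher and 19.3% lower. Smooth muscle genes have 100% of members lower and Wnt targets 73.9% higher.

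Most target genes of the Wnt pathway that were tested rose in tumours. Of 23 tested, 17 were called higher and 1 lower, their median log2 fold change was 1.64, and their summed CPM was 2059, 2303 and 1045 in normal colon and 5685, 5326 and 5603 in tumours. Axin2, a scaffold of the complex that destroys beta-catenin, stood at 223, 219.8 and 81.9 CPM in normal colon and 627, 638 and 695 CPM in tumours (log2 fold change 1.90 ± 0.43, edgeR adjusted p = 0.00294). The 3 tumours lay close together and normal colon 3 was lower than the other 2 normal libraries by more than 2 times. Rnf43, a ubiquitin ligase that removes Wnt receptors from the cell surface, stood at 159, 179 and 87.9 CPM in normal colon and 463, 423 and 442 CPM in tumours (log2 fold change 1.64 ± 0.30, edgeR adjusted p = 0.000621), and its relative Znrf3 at 96.1, 103 and 53.2 CPM in normal colon and 267, 257 and 261 CPM in tumours (log2 fold change 1.64 ± 0.35, edgeR adjusted p = 0.00179). Normal colon 3 was also the lowest library for Sox4, a transcription factor gene, at 121, 129 and 52.7 CPM in normal colon and 364, 402 and 341 CPM in tumours (log2 fold change 1.87 ± 0.37, edgeR adjusted p = 0.00114). Nkd1, an intracellular inhibitor of the pathway, stood at 161, 217 and 42.9 CPM in normal colon and 603, 637 and 648 CPM in tumours (log2 fold change 2.16 ± 0.62, edgeR adjusted p = 0.014). Nkd1 lost its call without normal colon 3 (edgeR adjusted p = 0.0569). Notum, a secreted enzyme that inactivates Wnt ligands, was not called at 71.5, 90.3 and 9.54 CPM in normal colon and 274, 254 and 262 CPM in tumours (log2 fold change 2.20 ± 0.92, edgeR adjusted p = 0.0768). With the replicate number as a block it passed (edgeR adjusted p = 0.0256).

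The member called lower was Nkd2, a relative of Nkd1, at 11.8, 3.29 and 15.4 CPM in normal colon and 3.67, 2.62 and 2.85 CPM in tumours (log2 fold change -1.70 ± 0.47, edgeR adjusted p = 0.00933), and its groups overlapped. Nkd2 lost its call without normal colon 3 (edgeR adjusted p = 0.0606). Lgr5, the R-spondin receptor that marks crypt stem cells, stood at 31.3, 56.1 and 10.2 CPM in normal colon and 93.1, 59.0 and 56.2 CPM in tumours and was not called (log2 fold change 1.09 ± 0.56, edgeR adjusted p = 0.14), although its groups did not overlap. Without normal colon 3, 10 Wnt targets were called higher and 0 lower, and without any other single library from 13 to 19 were called higher.

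Promoter sequence is shown for Sp5, a transcription factor gene that Wnt signals are known to induce, because it was 1 of 2 listed targets, with Tnfrsf19, whose promoter window held a TCF motif. Sp5 itself stood at 13.7, 27.5 and 1.49 CPM in normal colon and 83.5, 71.8 and 71.8 CPM in tumours (log2 fold change 2.40 ± 0.78, edgeR adjusted p = 0.0269). Sp5 lost its call without tumour 1 or 3 or normal colon 1 or 3 (edgeR adjusted p 0.0515 to 0.0797). The window runs from 250 bases before to 50 after the annotated gene start, at chr2:70474673-70474972 on the plus strand of GRCm38.p6, from RefSeq. Capitals mark the match to the TCF motif, searched as CTTTGAT or CTTTGAA on both strands.
Sp5: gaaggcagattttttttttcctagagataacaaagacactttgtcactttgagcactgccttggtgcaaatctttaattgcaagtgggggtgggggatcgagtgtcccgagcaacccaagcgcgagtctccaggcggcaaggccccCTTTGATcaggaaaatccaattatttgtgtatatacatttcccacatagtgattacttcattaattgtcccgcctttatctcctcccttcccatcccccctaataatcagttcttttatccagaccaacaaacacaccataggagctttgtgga
Of 32851 RefSeq promoter windows of this length, 2842 (8.65%) held such a match, as did 2 of the 15 Wnt targets matched to a window.

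Markers of crypt stem cells and of the fetal-like state seen in regenerating epithelium were called higher more often than lower. Of 15 stem and progenitor markers, 7 were called higher and 1 lower (median 0.96), with 2 lower without normal colon 3. Myc stood at 53.1, 59.5 and 37.2 CPM in normal colon and 97.9, 112 and 126 CPM in tumours (log2 fold change 1.16 ± 0.29, edgeR adjusted p = 0.00501) and the cyclin gene Ccnd1 at 142, 145 and 121 CPM in normal colon and 291, 293 and 268 CPM in tumours (log2 fold change 1.06 ± 0.18, edgeR adjusted p = 0.000246), without overlap in either case. Rgmb, a BMP co-receptor gene, went the other way, at 74.5, 71.5 and 91.2 CPM in normal colon and 43.2, 31.7 and 45.4 CPM in tumours (log2 fold change -0.96 ± 0.15, edgeR adjusted p = 0.000102). Of 19 fetal-like markers, 8 were called higher and 1 lower (median 0.44), and without normal colon 1 or 3 there were 5 higher in each case. The keratin gene Krt7 stood at 160.4, 172 and 77.4 CPM in normal colon and 376, 354 and 373 CPM in tumours (log2 fold change 1.43 ± 0.28, edgeR adjusted p = 0.00109), and tumours were above every normal library. The annexin gene Anxa3 was the member called lower, at 123, 141 and 141 CPM in normal colon and 93.4, 92.8 and 92.8 CPM in tumours (log2 fold change -0.54 ± 0.12, edgeR adjusted p = 0.00274).

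Part of the cell cycle genes rose, and the medians of their lists were below 2-fold. Of 20 S phase genes, 10 were called higher and 0 lower (median 0.60), and of 20 genes of G2 and mitosis likewise 10 and 0 (median 0.64). Mcm2, a subunit of the replicative helicase, stood at 43.8, 47.7 and 37.2 CPM in normal colon and 92.5, 70.7 and 76.7 CPM in tumours (log2 fold change 0.90 ± 0.19, edgeR adjusted p = 0.00128). The spindle assembly gene Tpx2 stood at 30.4, 28.2 and 22.7 CPM in normal colon and 54.9, 50.3 and 49.5 CPM in tumours (log2 fold change 0.93 ± 0.20, edgeR adjusted p = 0.00178) and the checkpoint kinase gene Bub1b at 29.7, 29.3 and 25.4 CPM in normal colon and 49.2, 45.9 and 41.6 CPM in tumours (log2 fold change 0.69 ± 0.18, edgeR adjusted p = 0.00705). Tumours and normal colon did not overlap for any of these 3. Mki67, the proliferation marker, was not called at 357, 312 and 312 CPM in normal colon and 422, 399 and 438 CPM in tumours (log2 fold change 0.36 ± 0.21, edgeR adjusted p = 0.195). It passed in 1 of 16 alternatives, a fit of only the wild-type male libraries (edgeR adjusted p = 0.0256). Of 18 replication-dependent histone genes, 0 were called in either direction by edgeR, with 0 at an unadjusted p under 0.05, 0 by DESeq2 and 3 higher by limma voom. The S phase count rests on single libraries, since 1 gene was called without tumour 1, 1 without normal colon 3 and 6 without normal colon 1. The count for G2 and mitosis was 5 without tumour 1 and 5 without normal colon 3. Of 22 genes of ribosome biogenesis, 12 were called higher and 1 lower (median 0.48). Ddx21, a nucleolar helicase gene, stood at 134, 125 and 97.5 CPM in normal colon and 177, 205 and 173 CPM in tumours (log2 fold change 0.63 ± 0.16, edgeR adjusted p = 0.00602) and Polr1a, the large subunit of RNA polymerase I, at 64.0, 63.2 and 51.0 CPM in normal colon and 94.0, 92.8 and 83.3 CPM in tumours (log2 fold change 0.60 ± 0.15, edgeR adjusted p = 0.0061). The exception was Utp20, at 137, 142 and 161 CPM in normal colon and 99.1, 73.9 and 83.5 CPM in tumours (log2 fold change -0.77 ± 0.18, edgeR adjusted p = 0.00339). Without normal colon 3 this list had 6 called higher, and without tumour 1 it had 7.

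**Figure D3:**
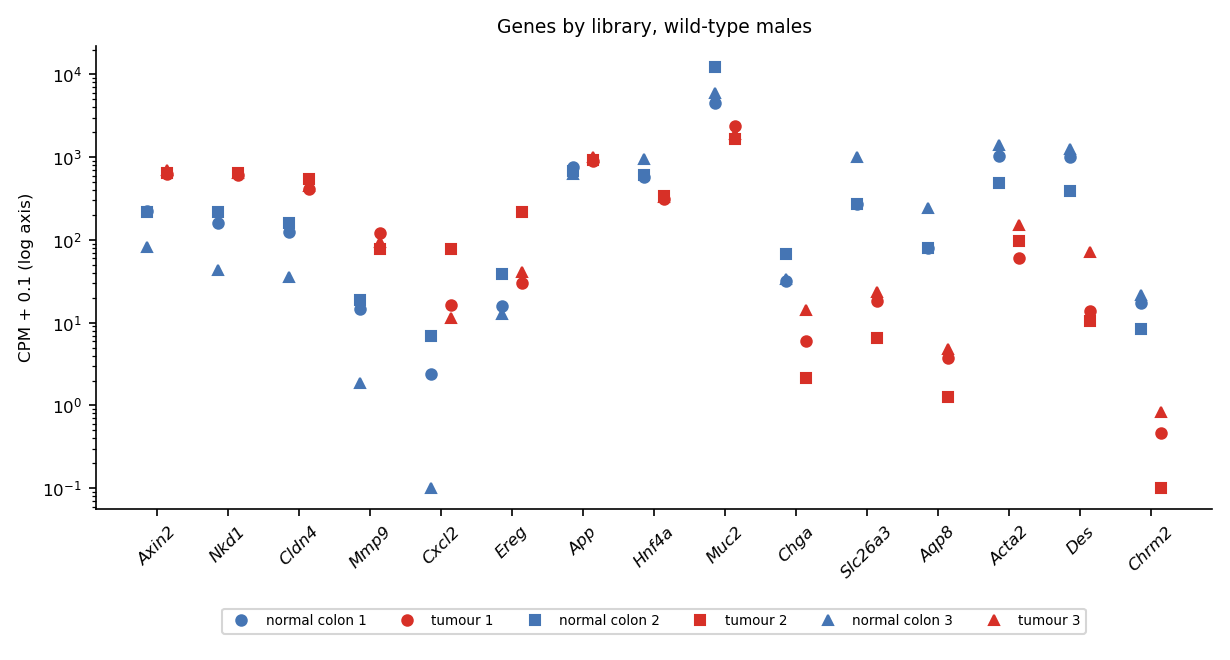
CPM plus 0.1, on a log axis, of 15 genes in each wild-type male library (blue, normal colon, red, tumour, with circles, squares and triangles for replicates 1, 2 and 3). Axin2, Nkd1 and Cldn4 lie above normal colon in all 3 tumours, and Aqp8, Des and Chrm2 lie below it. For Cxcl2 and Ereg tumour 2 stands above tumours 1 and 3.

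Genes of mature colonocytes fell as a group. Of 20 genes of ion and water transport, 18 were called lower and 0 higher (median -2.45), and the list summed to 3678, 3739 and 7569 CPM in normal colon and 1541, 1492 and 1737 CPM in tumours. In bulk tissue, fewer cells of a type and less RNA per cell cannot be told apart. Slc26a2, a sulfate transporter gene, stood at 341, 339.7 and 959 CPM in normal colon and 65.8, 65.4 and 84.6 CPM in tumours (log2 fold change -2.92 ± 0.42, edgeR adjusted p = 8.38e-05). Slc5a8, which takes up butyrate with sodium, stood at 273, 279 and 535 CPM in normal colon and 26.9, 9.89 and 37.7 CPM in tumours (log2 fold change -3.81 ± 0.51, edgeR adjusted p = 5.52e-05), and Slc16a1, a carrier of lactate and butyrate, at 279, 219 and 536 CPM in normal colon and 61.5, 62.2 and 70.0 CPM in tumours (log2 fold change -2.41 ± 0.31, edgeR adjusted p = 2.86e-05). In all 3 genes tumours lay below every normal library and normal colon 3 was the highest. Slc9a3, which encodes the sodium and hydrogen exchanger of the brush border, had higher values in tumours, 349.8, 364 and 342 against 68.3, 122 and 38.3 CPM, and was not called (log2 fold change 2.21 ± 0.95, edgeR adjusted p = 0.0842). It passed in 3 of 16 alternatives, among them a fit of only the wild-type male libraries (edgeR adjusted p = 0.0113). From 17 to 18 members of this list were called lower when any 1 library was left out.

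Of 23 colonocyte enzymes, surface and signalling genes, 19 were called lower and 1 higher (median -1.74). Lypd8, a secreted protein that keeps bacteria from the mucosa, stood at 5193, 5296 and 6623 CPM in normal colon and 2104, 2362 and 1909 CPM in tumours (log2 fold change -1.42 ± 0.17, edgeR adjusted p = 1.13e-05). The mucosal protease gene Mep1a stood at 156, 126 and 348 CPM in normal colon and 19.9, 18.6 and 32.2 CPM in tumours (log2 fold change -3.13 ± 0.42, edgeR adjusted p = 5.31e-05). Gucy2c, the receptor of guanylin, stood at 152, 194 and 251 CPM in normal colon and 62.0, 56.7 and 57.7 CPM in tumours (log2 fold change -1.75 ± 0.19, edgeR adjusted p = 6.76e-06), and Guca2a, which encodes guanylin, at 75.3, 122 and 129 CPM in normal colon and 19.6, 12.5 and 17.0 CPM in tumours (log2 fold change -2.70 ± 0.26, edgeR adjusted p = 3.86e-06). Receptor and ligand thus were both lower, with no overlap. The exception to the list was the carboxylesterase gene Ces1g, at 5.10, 7.18 and 5.17 CPM in normal colon and 10.002, 18.9 and 9.57 CPM in tumours (log2 fold change 1.10 ± 0.41, edgeR adjusted p = 0.043). Ces1g lost its call without tumour 1 or 2 or normal colon 1 or 3 (edgeR adjusted p 0.0548 to 0.197). Pigr, which carries IgA across the epithelium, stood at 3297, 3904 and 4214 CPM in normal colon and 707, 1061 and 908 CPM in tumours (log2 fold change -2.09 ± 0.18, edgeR adjusted p = 1.72e-06). The brush border genes Cdhr5 (-1.43 ± 0.17, edgeR adjusted p = 1.18e-05) and Myo1a (-1.40 ± 0.22, edgeR adjusted p = 0.000139) fell on the log2 scale, as did Vil1 (-0.55 ± 0.13, edgeR adjusted p = 0.00275).

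Transcription factors of intestinal identity were lower as well, 12 of 21 called lower and 0 higher (median -1.12). Without normal colon 2 there was 1 higher. Hnf4a, a nuclear receptor of absorptive cells, stood at 582, 604 and 939.6 CPM in normal colon and 309, 336 and 331 CPM in tumours (log2 fold change -1.12 ± 0.15, edgeR adjusted p = 4.15e-05). The homeobox genes Cdx1 and Cdx2 stood at 196, 232 and 307 CPM in normal colon and 75.8, 77.1 and 88.4 CPM in tumours (log2 fold change -1.60 ± 0.18, edgeR adjusted p = 8.98e-06) and at 26, 36.9 and 36.4 CPM in normal colon and 8.49, 11.3 and 10.8 CPM in tumours (log2 fold change -1.71 ± 0.32, edgeR adjusted p = 0.000593). None of the 3 overlapped between the groups. The vitamin D receptor gene Vdr stood at 233, 194 and 458 CPM in normal colon and 39.1, 43.6 and 53.5 CPM in tumours (log2 fold change -2.70 ± 0.34, edgeR adjusted p = 2.82e-05) and Klf4, a factor of post-mitotic crypt cells, at 532, 412 and 885 CPM in normal colon and 118, 163 and 183 CPM in tumours (log2 fold change -1.98 ± 0.31, edgeR adjusted p = 0.000168). Normal colon 3 was the highest for both.

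Fatty acid oxidation and ketogenesis, by which colonocytes burn butyrate and other acids, had 18 of 20 genes called lower and 0 higher (median -0.96). Cpt1a, the carnitine transferase at the mitochondrial entry, stood at 217, 252 and 386 CPM in normal colon and 132, 147 and 133 CPM in tumours (log2 fold change -1.05 ± 0.16, edgeR adjusted p = 9.72e-05). The dehydrogenase genes Hadh, Acadm and Bdh1 stood at 69.4, 77.4 and 73.5, at 42.5, 39.6 and 44.1 and at 33.7, 30.2 and 32.7 CPM in tumours and at 142, 135 and 212, at 86.1, 80.2 and 122 and at 81.3, 70.0 and 111 CPM in normal colon. Their log2 fold changes were -1.15 ± 0.15, -1.19 ± 0.18 and -1.44 ± 0.15 (edgeR adjusted p = 2.69e-05, 7.8e-05 and 6.43e-06). Glycolysis and hypoxia response genes had 5 of 21 called higher and 4 lower (median 0.15). These were 23.8% and 19.05%, near the 16.5% and 19.3% of all genes tested. There were 2 higher without tumour 2 and 3 without any 1 normal library. Slc16a3, the lactate exporter, stood at 38.1, 44.8 and 16.7 CPM in normal colon and 90.7, 172 and 93.8 CPM in tumours (log2 fold change 1.82 ± 0.42, edgeR adjusted p = 0.0036), with tumour 2 the highest, and the hypoxia-responsive gene Ndrg1 at 119, 117 and 106 CPM in normal colon and 166, 217 and 166 CPM in tumours (log2 fold change 0.68 ± 0.16, edgeR adjusted p = 0.00286). Hk1, a hexokinase gene, stood at 186, 189 and 263 CPM in normal colon and 104, 116 and 110.3 CPM in tumours (log2 fold change -0.95 ± 0.14, edgeR adjusted p = 8.29e-05).

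Genes of goblet and enteroendocrine cells were mostly lower too. Of 19 goblet cell genes, 14 were called lower and 0 higher (median -1.48), and the list summed to 15070.0, 28330.0 and 21970.0 CPM in normal colon and 5895, 4620.0 and 5690.0 CPM in tumours. Muc2, the gel-forming mucin, stood at 4482, 12446 and 5892 CPM in normal colon and 2356, 1636 and 1909 CPM in tumours (log2 fold change -1.95 ± 0.45, edgeR adjusted p = 0.00338), with normal colon 2 more than 2 times above normal colon 1 and 3. Fcgbp, a mucus protein gene, stood at 6471, 10275 and 10544 CPM in normal colon and 1591, 1206 and 1957 CPM in tumours (log2 fold change -2.52 ± 0.34, edgeR adjusted p = 4.48e-05) and Zg16, a mucus lectin gene, at 537, 929.8 and 1058 CPM in normal colon and 93.9, 50.6 and 80.2 CPM in tumours (log2 fold change -3.48 ± 0.53, edgeR adjusted p = 0.000176). The groups did not overlap for any of the 3. Atoh1, the factor that commits cells to the secretory fate, stood at 33.9, 70.0 and 69.5 CPM in normal colon and 11.7, 6.40 and 12.0 CPM in tumours (log2 fold change -2.46 ± 0.41, edgeR adjusted p = 0.000257). Tff3 (-2.14 ± 0.28, edgeR adjusted p = 3.89e-05) and Agr2 (-1.86 ± 0.23, edgeR adjusted p = 1.76e-05), a trefoil peptide and a chaperone of mucin folding, fell on the log2 scale.

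Of 22 enteroendocrine genes, 18 were called lower and 1 higher (median -2.29, or -2.23 with 2 members near 0 counts set to their bound). Chga, a protein of hormone granules, stood at 32.2, 67.4 and 33.7 CPM in normal colon and 5.97, 2.04 and 14.2 CPM in tumours (log2 fold change -2.46 ± 0.50, edgeR adjusted p = 0.00137). Tph1, which makes serotonin, stood at 22.1, 39.1 and 19.3 CPM in normal colon and 4.32, 3.20 and 8.74 CPM in tumours (log2 fold change -2.24 ± 0.48, edgeR adjusted p = 0.00204). The hormone genes Gcg, for glucagon-like peptides, and Insl5 stood at 13, 18.6 and 11.9 CPM in normal colon and 1.08, 0.872 and 2.02 CPM in tumours (log2 fold change -3.36 ± 0.45, edgeR adjusted p = 3.25e-05) and at 11.3, 27.5 and 18.5 CPM in normal colon and 1.30, 0.872 and 3.22 CPM in tumours (log2 fold change -3.28 ± 0.64, edgeR adjusted p = 0.00107). In these 4 genes normal colon 2 was the highest and tumour 2 the lowest library. Nts, for neurotensin, was the member called higher, at 0.755, 0.973 and 0.298 CPM in normal colon and 2.09, 10.2 and 1.66 CPM in tumours (log2 fold change 2.59 ± 0.75, edgeR adjusted p = 0.0118). Nts lost its call without tumour 2 or normal colon 3 (edgeR adjusted p 0.0584 to 0.128). Without normal colon 1, 2 enteroendocrine genes were called higher. Tuft cell genes were split, with 1 of 13 called in each direction (median -0.48), and 3 lower without normal colon 2. They summed to 147, 128 and 111 CPM in normal colon and 204, 222 and 225 CPM in tumours. The sum was higher in every tumour, but 1 gene, Avil, made up most of it there. The sum therefore does not speak for the list, whose median was negative. Avil, an actin-binding protein gene, stood at 25.4, 33.2 and 6.66 CPM in normal colon and 127, 145 and 132 CPM in tumours (log2 fold change 2.61 ± 0.54, edgeR adjusted p = 0.00163), and the kinase gene Dclk1 at 25.9, 25.4 and 20.8 CPM in normal colon and 7.56, 11.9 and 9.11 CPM in tumours (log2 fold change -1.38 ± 0.20, edgeR adjusted p = 5.43e-05), and 6 further tuft cell genes were too low to test.

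Junction genes had 9 of 21 members called lower and 2 higher (median -0.31). A pair of claudins moved far apart. Cldn4 stood at 123, 161 and 35.7 CPM in normal colon and 418, 549 and 445 CPM in tumours (log2 fold change 2.14 ± 0.56, edgeR adjusted p = 0.00797) and Cldn8 at 138, 174 and 199 CPM in normal colon and 20.3, 16 and 25.8 CPM in tumours (log2 fold change -3.01 ± 0.37, edgeR adjusted p = 2.42e-05). Cldn15, which forms sodium channels between cells, stood at 29.8, 45.5 and 39.2 CPM in normal colon and 7.77, 7.56 and 6.90 CPM in tumours (log2 fold change -2.36 ± 0.29, edgeR adjusted p = 1.59e-05). Normal colon and tumours did not overlap for any of the 3, and Cldn4 was lowest in normal colon 3. Without normal colon 1 or 3 or tumour 2, 1 junction gene was called higher. Antimicrobial lectin genes of the Reg family and related peptides had 2 of 17 called higher and 3 lower. Reg4 stood at 149.7, 356 and 194 CPM in normal colon and 60.9, 79.4 and 73.3 CPM in tumours (log2 fold change -1.72 ± 0.42, edgeR adjusted p = 0.00492). The count of higher genes was 0 without tumour 1, normal colon 1 or normal colon 3, 1 without tumour 2 or 3, and 6 without normal colon 2. With the replicate number as a block or by limma voom it was 4. Of 13 genes of epithelial oxidases and nitric oxide synthases, 1 was called higher, 2 without normal colon 2, and 3 lower. Cyba, a membrane subunit of NADPH oxidases, stood at 50.7, 71.8 and 36.1 CPM in normal colon and 115, 125 and 108 CPM in tumours (log2 fold change 1.13 ± 0.20, edgeR adjusted p = 0.000373) and Noxa1, an activator subunit, at 26.4, 35.2 and 35.5 CPM in normal colon and 18.5, 20.9 and 21.4 CPM in tumours (log2 fold change -0.68 ± 0.16, edgeR adjusted p = 0.00362).

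Genes of the muscle wall had the lowest median of all 41 lists. All 19 smooth muscle contractile genes tested were called lower (median -3.26, or -3.24 with 1 member near 0 counts set to its bound). Their sum was 10410.0, 4319 and 13330.0 CPM in normal colon and 878, 1006 and 1725 CPM in tumours. Normal colon 2 had the lowest sum of its group and still lay above every tumour. Myh11, the smooth muscle myosin heavy chain, stood at 2469.9, 831 and 3210.2 CPM in normal colon and 48.6, 56.4 and 259 CPM in tumours (log2 fold change -4.15 ± 0.63, edgeR adjusted p = 0.000178). The intermediate filament gene Des stood at 995, 388 and 1250.5 CPM in normal colon and 13.7, 10.5 and 70.8 CPM in tumours (log2 fold change -4.75 ± 0.73, edgeR adjusted p = 0.000188), the actin genes Actg2 at 910.5, 356 and 1280.1 CPM in normal colon and 15.8, 26.2 and 71.2 CPM in tumours (log2 fold change -4.48 ± 0.57, edgeR adjusted p = 4.2e-05) and Acta2 at 1037, 482 and 1399.5 CPM in normal colon and 59.6, 96.5 and 153 CPM in tumours (log2 fold change -3.24 ± 0.41, edgeR adjusted p = 3.25e-05). Tumour 3 was the highest tumour library for all 4. The content of muscle wall in the dissected samples is not given in the sources used here, and its part in the other results was not tested. From 17 to 19 members were called lower when any 1 library was left out.

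The promoter of Myl9, the regulatory light chain of smooth muscle myosin, is shown because it was 1 of 2 listed muscle genes, with Actc1, that held a CArG box, the motif of serum response factor. Myl9 stood at 387, 142 and 483 CPM in normal colon and 17.7, 25.6 and 44.8 CPM in tumours (log2 fold change -3.51 ± 0.49, edgeR adjusted p = 7.37e-05). Its window lies at chr2:156775214-156775513 on the plus strand of GRCm38.p6. Capitals mark the CArG box, searched as CCWWWWWWGG on both strands, where W is A or T.
Myl9: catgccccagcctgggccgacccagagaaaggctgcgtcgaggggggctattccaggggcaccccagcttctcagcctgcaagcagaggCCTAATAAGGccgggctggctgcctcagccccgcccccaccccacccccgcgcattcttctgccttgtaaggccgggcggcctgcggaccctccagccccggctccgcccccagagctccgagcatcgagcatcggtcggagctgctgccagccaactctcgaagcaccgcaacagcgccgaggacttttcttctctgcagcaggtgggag
A CArG box was found in 535 of the 32851 RefSeq windows (1.63%) and in 2 of the 15 listed muscle genes matched to a window. Forms with a mismatch were not searched, so these counts do not show which genes lack a working box. Actc1 had too few counts to be tested in the tumour comparison.

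Genes of cells that work with the muscle followed in part. Of 17 enteric neuron genes, 11 were called lower and 0 higher (median -1.92, or -1.30 with 2 members near 0 counts set to their bound). Their sum was 86.5, 102 and 64.3 CPM in normal colon and 74.5, 70.4 and 46.2 CPM in tumours, and the groups overlapped. Without normal colon 1 there were 7 lower, and without normal colon 2 there were 2 higher. Vip, a neuropeptide of inhibitory neurons, stood at 9.77, 11.7 and 6.76 CPM in normal colon and 0.360, 0 and 1.47 CPM in tumours (log2 fold change -3.68 ± 0.72, edgeR adjusted p = 0.000953) and the neuronal nitric oxide synthase gene Nos1 at 8.54, 7.26 and 5.57 CPM in normal colon and 0.216, 0 and 0.828 CPM in tumours (log2 fold change -4.06 ± 0.93, edgeR adjusted p = 0.00306). Tumour 2 held no count of either. Of 15 genes of glia and the Schwann lineage, 8 were called lower and 1 higher (median -1.36). The list summed to 486.5, 435.3 and 645.5 CPM in normal colon and 246.3, 255.0 and 244.9 CPM in tumours. Most of this sum came from Erbb3, also among the 8 and described below with the EGF receptor family. Scn7a, a sodium channel gene of glia, stood at 34.6, 26.7 and 27.4 CPM in normal colon and 3.17, 5.23 and 5.71 CPM in tumours (log2 fold change -2.69 ± 0.24, edgeR adjusted p = 1.72e-06). Ngfr, the low-affinity neurotrophin receptor, was the exception at 7.51, 4.19 and 3.08 CPM in normal colon and 15.8, 17.7 and 18.4 CPM in tumours (log2 fold change 1.79 ± 0.40, edgeR adjusted p = 0.0022).

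Of 15 genes of the interstitial cells of Cajal and of PDGFRA-positive cells, which pace the muscle and relay nerve signals to it, 10 were called lower and 1 higher (median -2.32, or -2.17 with 1 member near 0 counts set to its bound). Kit stood at 65.2, 92.9 and 70.3 CPM in normal colon and 23.4, 30.8 and 26.7 CPM in tumours (log2 fold change -1.51 ± 0.24, edgeR adjusted p = 0.000177) and the chloride channel gene Ano1 at 372, 397 and 547 CPM in normal colon and 214, 179 and 194 CPM in tumours (log2 fold change -1.16 ± 0.22, edgeR adjusted p = 0.000703). The exception was Elovl6, a fatty acid elongase gene, at 50.5, 61.7 and 50.8 CPM in normal colon and 82.0, 81.7 and 71.5 CPM in tumours (log2 fold change 0.53 ± 0.16, edgeR adjusted p = 0.0159). Elovl6 lost its call without tumour 1 or normal colon 1 or 3 (edgeR adjusted p 0.0651 to 0.0725). Thbs4, a thrombospondin gene, stood at 311, 373 and 479 CPM in normal colon and 44.3, 24.4 and 60.6 CPM in tumours (log2 fold change -3.14 ± 0.39, edgeR adjusted p = 3.03e-05). Hand1 had no count in any tumour, against 2.55, 1.5 and 2.09 CPM in normal colon, and was at least 4.50-fold lower at a floor of 3 counts per library (edgeR adjusted p = 0.000373). Pdgfra itself was not called at 136, 141 and 112 CPM in normal colon and 187, 154 and 201 CPM in tumours (log2 fold change 0.48 ± 0.20, edgeR adjusted p = 0.0745), and with the replicate number as a block it passed as higher (edgeR adjusted p = 0.0458). Of 11 adipocyte genes tested, 4 were called lower and 0 higher. Adipoq, Plin1 and Lep were too low to test. Of 13 mesothelial genes, 2 were called higher and 1 lower, and the 2 were Msln and Krt7, both also known from epithelial tumours.

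**Figure D4:**
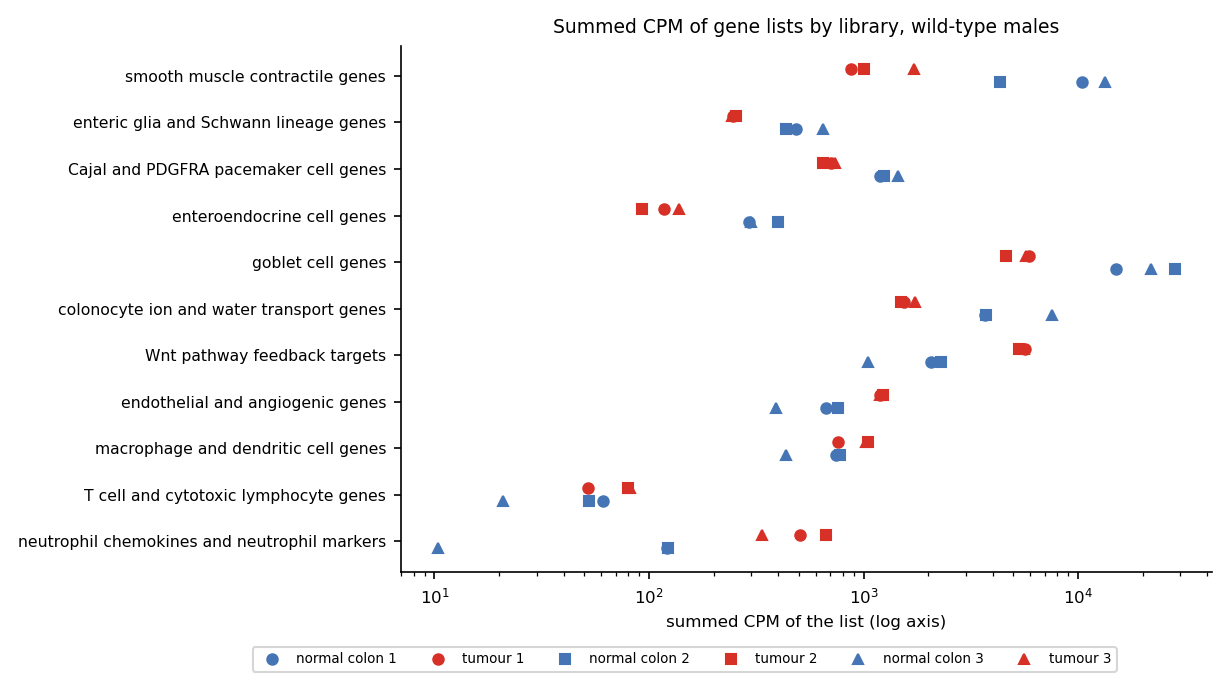
Summed CPM of 11 gene lists in each wild-type male library, on a log axis (blue, normal colon, red, tumour, with circles, squares and triangles for replicates 1, 2 and 3). Sums of smooth muscle, glial, pacemaker, enteroendocrine, goblet and colonocyte transport lists lie lower in all 3 tumours. Sums of Wnt target, endothelial and neutrophil lists lie higher. A sum follows its most abundant members, such as Erbb3 in the glial list and Apoe in the macrophage list. In the endothelial list the median log2 fold change was only 0.16, with 6 of 22 members called higher. In the macrophage and T cell lists tumour 1 lies within the range of normal colon, and tumours 2 and 3 lie above it.

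Stromal signals did not move in 1 direction. Among BMP ligands, receptors, antagonists and targets, 8 of 22 were called higher and 6 lower. Antagonist genes were among those that fell. Grem1, which protects the stem cell niche from BMP, stood at 50.9, 67.7 and 42.2 CPM in normal colon and 9.79, 14.2 and 12.2 CPM in tumours (log2 fold change -2.18 ± 0.32, edgeR adjusted p = 8.4e-05) and Chrdl1 at 27.0, 10.3 and 34.9 CPM in normal colon and 0.504, 0.582 and 2.76 CPM in tumours (log2 fold change -4.10 ± 0.53, edgeR adjusted p = 3.03e-05). Neither overlapped between groups. The ligand genes differed from each other, with Bmp7 at 25.3, 37.3 and 12.3 CPM in normal colon and 95.9, 74.7 and 81.1 CPM in tumours (log2 fold change 1.74 ± 0.33, edgeR adjusted p = 0.00081) and Bmp3 at 33.9, 34.0 and 52.6 CPM in normal colon and 6.48, 3.78 and 7.91 CPM in tumours (log2 fold change -2.65 ± 0.43, edgeR adjusted p = 0.000222). Of the target genes, Id3 stood at 62.3, 65.5 and 50.3 CPM in normal colon and 152, 93.6 and 126 CPM in tumours (log2 fold change 1.07 ± 0.22, edgeR adjusted p = 0.00141) and Id2 at 34.3, 25.4 and 19.4 CPM in normal colon and 56.6, 52.6 and 53.6 CPM in tumours (log2 fold change 1.04 ± 0.21, edgeR adjusted p = 0.00124), higher in every tumour. Without tumour 1 or normal colon 1, 5 genes of this list were called higher in each case.

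Wnt ligands and their secreted modulators were split, with 5 of 21 called higher and 6 lower (median -0.56, or -0.31 with 2 members near 0 counts set to their bound). These shares were 23.8% and 28.6%, beside 16.5% and 19.3% of all genes. Dkk2, a secreted antagonist, stood at 23.7, 27.5 and 0.895 CPM in normal colon and 142, 113 and 112 CPM in tumours (log2 fold change 2.79 ± 0.72, edgeR adjusted p = 0.00773). The ligand genes Wnt6 and Wnt5a stood at 21.5, 29.1 and 4.27 CPM in normal colon and 107, 71.0 and 89.9 CPM in tumours (log2 fold change 2.28 ± 0.65, edgeR adjusted p = 0.0132) and at 30.8, 32.6 and 19.5 CPM in normal colon and 47.3, 35.2 and 46.6 CPM in tumours (log2 fold change 0.65 ± 0.16, edgeR adjusted p = 0.0054). All 3 were higher in every tumour than in any normal library. Dkk2 and Wnt5a lost their calls in a fit of only the wild-type male libraries (edgeR adjusted p = 0.0556 and 0.0533). Sfrp1, a decoy for Wnt ligands, stood at 50.9, 58.3 and 32.1 CPM in normal colon and 4.97, 7.27 and 8.74 CPM in tumours (log2 fold change -2.77 ± 0.45, edgeR adjusted p = 0.000226), and Rspo3, an R-spondin that amplifies Wnt signals, at 6.47, 3.97 and 10.6 CPM in normal colon and 0.792, 0.291 and 0.920 CPM in tumours (log2 fold change -3.20 ± 0.52, edgeR adjusted p = 0.00016). Rspo3 was near the floor in tumours. Leaving out normal colon 3 left 3 genes of this list called higher.

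Among ligands and receptors of the EGF receptor family, 3 of 16 were called higher and 5 lower (18.75% and 31.25%, beside 16.5% and 19.3% of all genes). Tgfa, a ligand, stood at 60.1, 70.0 and 48.5 CPM in normal colon and 111, 126 and 116 CPM in tumours (log2 fold change 0.98 ± 0.19, edgeR adjusted p = 0.000749). The receptor genes Erbb2 and Erbb3 stood at 285, 273 and 404 CPM in normal colon and 177, 169 and 189 CPM in tumours (log2 fold change -0.85 ± 0.19, edgeR adjusted p = 0.00211) and at 384, 358 and 566 CPM in normal colon and 195, 188 and 188 CPM in tumours (log2 fold change -1.20 ± 0.17, edgeR adjusted p = 5.43e-05). Lrig1, which restrains these receptors and marks crypt base cells, stood at 182, 191 and 251 CPM in normal colon and 78.9, 53.2 and 74.1 CPM in tumours (log2 fold change -1.59 ± 0.18, edgeR adjusted p = 9.85e-06). No group overlap was seen in these 4 genes. Ereg, another ligand, stood at 16, 38.8 and 12.6 CPM in normal colon and 30.1, 218 and 40.7 CPM in tumours (log2 fold change 2.06 ± 0.69, edgeR adjusted p = 0.0293), where tumour 2 was more than 5 times above the other tumours and the groups overlapped. Ereg lost its call without tumour 2 or normal colon 1 or 3 (edgeR adjusted p 0.101 to 0.369).

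Prostaglandin genes were balanced in number, with 6 of 19 called in each direction. Ptgs2, the inducible cyclooxygenase, stood at 12.5, 30.7 and 10.6 CPM in normal colon and 48.5, 179 and 62.4 CPM in tumours (log2 fold change 2.40 ± 0.52, edgeR adjusted p = 0.00223), with tumour 2 the highest, and Abcc4, an exporter of prostaglandins, at 95.3, 104 and 54.2 CPM in normal colon and 207, 214 and 217 CPM in tumours (log2 fold change 1.33 ± 0.27, edgeR adjusted p = 0.00121). Hpgd, which degrades prostaglandin E2, stood at 90.0, 77.1 and 158 CPM in normal colon and 28.5, 23.0 and 43.2 CPM in tumours (log2 fold change -1.76 ± 0.39, edgeR adjusted p = 0.00253), and the prostaglandin E2 receptor gene Ptger3 at 9.58, 6.14 and 14.7 CPM in normal colon and 1.44, 0.291 and 1.47 CPM in tumours (log2 fold change -3.02 ± 0.47, edgeR adjusted p = 0.000126). Ptgs2 and Abcc4 were thus higher, and Hpgd and Ptger3 lower, in every tumour than in any normal library. The list had 3 called in each direction without normal colon 3.

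Matrix-degrading enzymes and their inhibitors had 8 of 22 called higher and 3 lower (median 1.18). Mmp9, a gelatinase of leukocytes and tumour stroma, stood at 14.3, 18.8 and 1.79 CPM in normal colon and 122, 77.6 and 95.5 CPM in tumours (log2 fold change 3.06 ± 0.78, edgeR adjusted p = 0.00706). Mmp14, a membrane-bound collagenase, stood at 146, 189 and 93.4 CPM in normal colon and 339.6, 406 and 344 CPM in tumours (log2 fold change 1.34 ± 0.22, edgeR adjusted p = 0.000224), and Plat, the tissue plasminogen activator, at 56.1, 102 and 11.2 CPM in normal colon and 354, 462 and 305 CPM in tumours (log2 fold change 2.72 ± 0.67, edgeR adjusted p = 0.00576). All 3 were higher in every tumour, and normal colon 3 was the lowest library. Mmp12 (2.81 ± 0.54, edgeR adjusted p = 0.000868), Plau (1.83 ± 0.43, edgeR adjusted p = 0.00361), its receptor gene Plaur (1.97 ± 0.44, edgeR adjusted p = 0.00256) and Timp1 (1.69 ± 0.39, edgeR adjusted p = 0.00267) rose on the log2 scale. Mmp7, an epithelial enzyme, stood at 37.2, 97.9 and 3.78 CPM in normal colon and 282, 209 and 146 CPM in tumours and was not called (log2 fold change 2.19 ± 0.87, edgeR adjusted p = 0.0633). Mmp10 and Mmp13 stood at 5.85, 58.4 and 1.19 CPM in normal colon and 119, 197 and 80.3 CPM in tumours and at 5.90, 53.4 and 1.29 CPM in normal colon and 104, 127 and 78.6 CPM in tumours and were not called either (edgeR adjusted p = 0.0765 and 0.0907). In all 3, normal colon 2 lay above the other normal libraries. Without normal colon 2, 13 genes of the list were called higher, these 3 among them. The 3 genes called lower came to 0 without tumour 1 and 1 without normal colon 3. With the replicate number as a block Mmp7, Mmp10 and Mmp13 passed as well (edgeR adjusted p = 0.0231, 0.024 and 0.0308), and the list had 13 higher and 1 lower.

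Activated fibroblast genes had 4 of 21 called higher and 6 lower (median 0.03), with 2 higher without tumour 2, normal colon 1 or normal colon 3. The full shares were 19.05% and 28.6%, beside 16.5% and 19.3% of all genes. Inhba, an activin subunit, stood at 6.66, 16.4 and 2.29 CPM in normal colon and 34.8, 51.8 and 30.9 CPM in tumours (log2 fold change 2.19 ± 0.48, edgeR adjusted p = 0.00212). Postn, for periostin, stood at 287, 211 and 349 CPM in normal colon and 51.1, 75.6 and 68.4 CPM in tumours (log2 fold change -2.13 ± 0.23, edgeR adjusted p = 7.32e-06), and Lum, for the proteoglycan lumican, at 38.8, 26.3 and 37.0 CPM in normal colon and 1.15, 5.23 and 6.35 CPM in tumours (log2 fold change -3.09 ± 0.58, edgeR adjusted p = 0.000836). Collagen chain genes had 2 of 21 called higher and 4 lower, with 4 higher without normal colon 2 and 1 without any other library. Col18a1, which contains the endostatin sequence, stood at 96.4, 179 and 61.1 CPM in normal colon and 227, 315 and 247 CPM in tumours (log2 fold change 1.22 ± 0.27, edgeR adjusted p = 0.00222), and Col14a1, a fibril-associated collagen, at 64.0, 51.8 and 60.2 CPM in normal colon and 13.3, 11.3 and 18.5 CPM in tumours (log2 fold change -2.0 ± 0.22, edgeR adjusted p = 7.32e-06). Col18a1 lost its call in a fit of only the wild-type male libraries (edgeR adjusted p = 0.061). Col1a1, the main fibrillar chain, was not called at 489, 677 and 604 CPM in normal colon and 698, 824 and 730.4 CPM in tumours (log2 fold change 0.35 ± 0.29, edgeR adjusted p = 0.37).

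Endothelial and angiogenic genes had 6 of 22 called higher and 1 lower (median 0.16), with 3 higher without tumour 2, 3 without normal colon 1 and 1 without normal colon 3. Angpt2, a destabilising ligand of vessels, stood at 14.5, 15.8 and 8.15 CPM in normal colon and 30.3, 45.9 and 28.5 CPM in tumours (log2 fold change 1.42 ± 0.25, edgeR adjusted p = 0.000361). Its receptor gene Tek stood at 15.5, 11.7 and 15.2 CPM in normal colon and 7.34, 7.27 and 6.90 CPM in tumours (log2 fold change -0.98 ± 0.21, edgeR adjusted p = 0.00136). Ligand and receptor moved in opposite directions, without overlap. Plvap, a protein of fenestrated endothelium, stood at 41.3, 56.3 and 37.5 CPM in normal colon and 43.5, 35.5 and 41.0 CPM in tumours and overlapped between the groups (log2 fold change -0.16 ± 0.26, edgeR adjusted p = 0.657).

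Part of the chemokines that draw neutrophils and of the neutrophil markers rose in tumours. Of 18 tested, 10 were called higher and 0 lower (median 2.42), and the list summed to 122, 123 and 10.3 CPM in normal colon and 506, 667 and 338 CPM in tumours. Cxcl2 stood at 2.31, 6.73 and 0 CPM in normal colon and 16.2, 77.1 and 11.2 CPM in tumours (log2 fold change 3.45 ± 1.11, edgeR adjusted p = 0.0246) and Cxcl1 at 1.75, 6.96 and 0.497 CPM in normal colon and 10.5, 61.4 and 14.4 CPM in tumours (log2 fold change 3.16 ± 0.92, edgeR adjusted p = 0.0143). Tumour 2 was the highest library for both by more than 4 times, and normal colon 3 was the lowest. Cxcl2 lost its call without tumour 2 or normal colon 1 or 3 (edgeR adjusted p 0.074 to 0.143). Cxcl1 lost its call without tumour 2 or normal colon 1 or 3 (edgeR adjusted p 0.0599 to 0.0922). The receptor gene Csf3r, a marker of neutrophils, stood at 3.92, 7.93 and 1.49 CPM in normal colon and 24.0, 17.4 and 16.4 CPM in tumours (log2 fold change 2.11 ± 0.46, edgeR adjusted p = 0.0021), without such an excess in tumour 2. S100a9, a calcium-binding protein abundant in neutrophils, was not called at 2.22, 6.58 and 0.398 CPM in normal colon and 18.7, 21.5 and 9.76 CPM in tumours (log2 fold change 2.40 ± 1.09, edgeR adjusted p = 0.0981), and with the replicate number as a block it passed (edgeR adjusted p = 0.0487). Without tumour 2 the list had 3 called higher, without normal colon 1 it had 4 and without normal colon 3 it had 5.

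The promoters of Cxcl1 and Cxcl2 are shown because, with Cxcl3, they were the listed genes whose window held a kB motif, the site of NF-kB factors, searched as GGGNN followed directly by TTTCC on both strands. The windows lie at chr5:90890995-90891294 and chr5:90903649-90903948, on the plus strand of GRCm38.p6, and capitals mark the 2 matches in each.
Cxcl1: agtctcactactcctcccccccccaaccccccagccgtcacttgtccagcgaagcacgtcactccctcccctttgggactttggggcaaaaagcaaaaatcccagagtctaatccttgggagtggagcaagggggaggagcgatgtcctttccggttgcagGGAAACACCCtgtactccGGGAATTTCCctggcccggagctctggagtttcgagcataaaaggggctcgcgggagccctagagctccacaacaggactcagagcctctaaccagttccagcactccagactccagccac
Cxcl2: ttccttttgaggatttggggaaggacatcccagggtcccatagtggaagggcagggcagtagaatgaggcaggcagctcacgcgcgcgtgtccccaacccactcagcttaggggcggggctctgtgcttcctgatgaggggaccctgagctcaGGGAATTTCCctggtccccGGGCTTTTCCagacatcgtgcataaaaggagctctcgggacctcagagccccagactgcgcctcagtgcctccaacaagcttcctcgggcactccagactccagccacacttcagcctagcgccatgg
Such a match was found in 535 of the 32851 RefSeq windows (1.63%) and in 3 of the 19 listed genes matched to a window. The second capital run of Cxcl1 and the first of Cxcl2 are the same 10 letters.

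A list of cytokines and receptors, named for the IL-6, IL-1 and IL-10 families, had 10 of 23 called higher and 3 lower (median 1.28). The list also holds genes of other families, such as Il17a, which was too low to test. It had 6 called higher without tumour 2 and 6 without normal colon 3. Tnf stood at 5.05, 5.39 and 1.89 CPM in normal colon and 13.1, 49.7 and 16.5 CPM in tumours (log2 fold change 2.62 ± 0.56, edgeR adjusted p = 0.00173) and Il1b at 6.75, 13.9 and 1.39 CPM in normal colon and 31.0, 101 and 20.2 CPM in tumours (log2 fold change 2.73 ± 0.75, edgeR adjusted p = 0.0105). Tumour 2 was the highest library for both by more than 3 times. Il1b lost its call without tumour 2 (edgeR adjusted p = 0.0648) and in a fit of only the wild-type male libraries (edgeR adjusted p = 0.0634). Il23a, a subunit of IL-23, stood at 1.65, 2.47 and 0.497 CPM in normal colon and 5.76, 11.6 and 10.1 CPM in tumours (log2 fold change 2.51 ± 0.49, edgeR adjusted p = 0.000717) and Lif, a cytokine of the IL-6 family, at 4.81, 6.81 and 4.08 CPM in normal colon and 10.6, 22.7 and 12.9 CPM in tumours (log2 fold change 1.52 ± 0.32, edgeR adjusted p = 0.00132). Il22ra1, the epithelial receptor of IL-22, stood at 112, 112 and 166 CPM in normal colon and 56.4, 71.0 and 59.1 CPM in tumours (log2 fold change -1.07 ± 0.22, edgeR adjusted p = 0.00118), and Il18 at 34.3, 37.1 and 59.2 CPM in normal colon and 17.0, 19.2 and 20.7 CPM in tumours (log2 fold change -1.20 ± 0.31, edgeR adjusted p = 0.00613), both lower in every tumour. Il6 stood at 0.142, 0.673 and 0 CPM in normal colon and 0.360, 7.27 and 0 CPM in tumours and was not called (log2 fold change 2.79 ± 1.28, edgeR adjusted p = 0.0978), and tumour 2 was the highest library by more than 10 times. Among the 272 genes called at least 4-fold higher, tumour 2 was the highest tumour library for 131, tumour 1 for 93 and tumour 3 for 48. In 12 of the 272 the highest tumour library was at least 3 times above the middle one. In 11 of these it was tumour 2, the shallowest library, and the cause was not tested.

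Other leukocyte lists had few calls. Of 21 T cell and cytotoxic lymphocyte genes, 0 were called in either direction (median 0.33). Their sum was 60.8, 52.3 and 20.9 CPM in normal colon and 51.9, 80.3 and 81.4 CPM in tumours. At an unadjusted p under 0.05 edgeR gave 4 higher and 0 lower, and 2 were called higher by DESeq2, 1 by limma voom and 1 with the replicate number as a block. Without tumour 1 there were 2 called higher and without normal colon 1 there was 1. Of 12 MHC class II genes, 1 was called lower. This was Ctss, a protease that prepares antigens for these molecules, at 184, 165 and 208 CPM in normal colon and 73.6, 123 and 96.3 CPM in tumours (log2 fold change -0.93 ± 0.17, edgeR adjusted p = 0.000541). Of 20 B cell and plasma cell genes, 2 were called in each direction, with 5 lower without normal colon 3 and 1 lower without normal colon 1 or any 1 tumour. DESeq2 called 4 and limma voom 7 of them lower, edgeR gave 7 lower at an unadjusted p under 0.05, and the median was -1.25. Prdm1, a factor of plasma cells that epithelium also expresses, stood at 29.1, 22.9 and 10.7 CPM in normal colon and 38.6, 109.9 and 61.6 CPM in tumours (log2 fold change 1.71 ± 0.39, edgeR adjusted p = 0.00315), and Irf4 at 14.7, 19.0 and 5.96 CPM in normal colon and 3.31, 5.53 and 3.22 CPM in tumours (log2 fold change -1.81 ± 0.48, edgeR adjusted p = 0.00746).

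Macrophage and dendritic cell genes had 6 of 23 called higher and 4 lower (26.1% and 17.4%, beside 16.5% and 19.3% of all genes). The count of higher genes was 0 without tumour 2, tumour 3 or normal colon 3, 1 without normal colon 1 and 3 without tumour 1 or with the replicate number as a block. Mertk, a receptor for dying cells, stood at 45.1, 44.8 and 71.0 CPM in normal colon and 17.0, 12.5 and 22.3 CPM in tumours (log2 fold change -1.60 ± 0.30, edgeR adjusted p = 0.000581), and the scavenger receptor gene Cd163 at 7.36, 4.49 and 6.56 CPM in normal colon and 0.576, 0 and 0.552 CPM in tumours (log2 fold change -3.67 ± 0.62, edgeR adjusted p = 0.000261). Both were lower in every tumour. Apoe, abundant in macrophages, stood at 201, 265 and 93.9 CPM in normal colon and 321, 417 and 529 CPM in tumours (log2 fold change 1.18 ± 0.43, edgeR adjusted p = 0.0428). Apoe lost its call without tumour 1, 2 or 3 or normal colon 1 or 3 (edgeR adjusted p 0.054 to 0.176) and with the replicate number as a block (edgeR adjusted p = 0.0565). Of 13 mast cell genes, 3 were called higher, Hdc, Gata2 and Il1rl1, and 2 lower, Slc6a4 and Kit. Kit was given above with the Cajal cell genes, and no mast cell protease gene was called. Gata2 passed in 14 and Il1rl1 in 9 of 16 alternatives, and without tumour 1 there was 1 higher. Slc6a4, the serotonin transporter, stood at 11.1, 8.98 and 21.7 CPM in normal colon and 2.01, 1.16 and 2.12 CPM in tumours (log2 fold change -2.87 ± 0.47, edgeR adjusted p = 0.000205). Of 24 interferon-stimulated genes, 4 were called higher and 1 lower, a share of 16.7% higher beside 16.5% of all genes. Usp18, a brake on interferon signalling, stood at 15.9, 11.5 and 6.26 CPM in normal colon and 58.6, 41.3 and 43.7 CPM in tumours (log2 fold change 2.08 ± 0.54, edgeR adjusted p = 0.00732). Without normal colon 3, 1 was called higher, and without tumour 1 or 2 or normal colon 2 there were 2. The lower one was not called without normal colon 3 or any 1 tumour. With the replicate number as a block 1 was called higher.

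App, the gene altered in the other genotype of the series, stood at 751, 675 and 633 CPM in normal colon and 903, 922 and 1003 CPM in tumours in these wild-type males (log2 fold change 0.46 ± 0.16, edgeR adjusted p = 0.0341). All 3 tumours were above all 3 normal libraries. App lost its call without tumour 1, 2 or 3 or normal colon 2 or 3 (edgeR adjusted p 0.0614 to 0.124) and with the replicate number as a block (edgeR adjusted p = 0.12). Over 16 alternatives its adjusted p ran from 0.0134 to 0.124, and it passed in 9. Of 23 genes of the App family, the secretases and App-binding proteins, 5 were called higher and 7 lower (median 0.08). Aplp2, a paralog, stood at 397, 375 and 389 CPM in normal colon and 555, 509.5 and 578 CPM in tumours (log2 fold change 0.50 ± 0.14, edgeR adjusted p = 0.00985). Sorl1, a sorting receptor for App, stood at 354, 358 and 460.4 CPM in normal colon and 186, 224 and 224 CPM in tumours (log2 fold change -0.89 ± 0.13, edgeR adjusted p = 5.22e-05). Aplp2 was higher and Sorl1 lower in every tumour. The count of higher genes in this list was 1 without tumour 1, tumour 2 or normal colon 3, 2 without tumour 3 or normal colon 1 and 3 without normal colon 2. The count of lower genes was 4 without tumour 3 or normal colon 3. With the replicate number as a block 2 were higher and 4 lower.

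The tumour effect of wild-type males was then tested against that of wild-type females, in whom 49.1% of genes were called, 25.0% higher and 24.0% lower in tumours. It differed for 179 genes (1.12%), 148 with a higher log2 effect in females (0.929%) and 31 with a lower one (0.195%). Of the genes in the 41 lists, 27 differed, and in 24 the log2 effect was higher in females. Among them was Plvap, a gene of endothelial diaphragms, which had a log2 fold change of -0.16 ± 0.26 in males and 2.50 ± 0.29 in females, a difference of 2.66 ± 0.39 (edgeR adjusted p = 0.00355). It stood at 6.34, 5.85 and 6.5 CPM in female normal colon and 18.1, 39.6 and 47.8 CPM in female tumours, so that male normal colon, given above, lay above female normal colon. Fn1, for fibronectin, had effects of -0.29 ± 0.21 in males and 1.80 ± 0.21 in females (difference 2.09 ± 0.30, edgeR adjusted p = 0.00306), with 421, 339 and 417 CPM in female and 1452, 1353 and 1830.0 CPM in male normal colon. Male normal colon again lay above female normal colon without overlap.

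Some genes that rose in both sexes rose by more in females. Bmp7 differed by 2.96 ± 0.51 (edgeR adjusted p = 0.0129), with 2.70, 3.34 and 3.56 CPM in female normal colon and 87.1, 66.9 and 89.4 CPM in female tumours. Wnt5a differed by 1.90 ± 0.24 (edgeR adjusted p = 0.000681), and the stem cell factor gene Ascl2 by 2.12 ± 0.39 (edgeR adjusted p = 0.0138). Female and male tumours reached similar Bmp7 levels from different levels in normal colon. Mx1, an interferon-induced gene, went the other way, at 1.23 ± 0.41 in males and -1.68 ± 0.42 in females (difference -2.91 ± 0.59, edgeR adjusted p = 0.0246, and 0.139 with the replicate number as a block). Plvap, Fn1, Bmp7, Wnt5a and Ascl2 passed in all 16 alternatives. The test of the difference does not tell apart a difference in tumours from a difference in normal colon. The number of genes was 544 without normal colon 3 and from 45 to 75 without any other single male library, and 48 with the replicate number as a block.

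Between knock-in and wild-type males the tumour effect differed for 240 genes (1.51%), 181 with a higher log2 effect in knock-in males (1.14%) and 59 with a lower one (0.370%). In knock-in males 20.4% of genes were called, 10.4% higher and 9.97% lower in tumours. Of the list genes 13 differed, and the log2 effect was higher in knock-in males for all 13, which for genes that fell in wild-type males is a smaller decrease or none. Slc16a1 had a log2 fold change of -2.41 ± 0.31 in wild-type males and -0.32 ± 0.29 in knock-in males (difference 2.09 ± 0.41, edgeR adjusted p = 0.0406). In knock-in males it stood at 178, 249.5 and 164 CPM in normal colon and 119, 228 and 126 CPM in tumours, which overlapped, unlike wild-type males. Cldn8 differed by 2.07 ± 0.49 (edgeR adjusted p = 0.0474), Chrm2 by 3.11 ± 0.74 (edgeR adjusted p = 0.0474) and Pparg, a nuclear receptor gene of lipid metabolism, by 1.23 ± 0.26 (edgeR adjusted p = 0.0406). This test and that between the sexes share the 6 wild-type male libraries. The calls between genotypes were not stable. The number of genes was 0 with offsets for GC content and gene length, 1 in a fit of only the compared groups, 0 without tumour 1, tumour 2 or normal colon 3 and 1 without tumour 3. At an unadjusted p under 0.05 edgeR gave 4023 genes, 2882 with those offsets and 3454, 3708 and 3197 without tumour 1, tumour 2 and normal colon 3. DESeq2 called 1326 and limma voom 1194 genes. Slc16a1 passed in 9, Pparg in 9 and Cldn8 and Chrm2 in 6 of 16 alternatives.

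**Figure D5:**
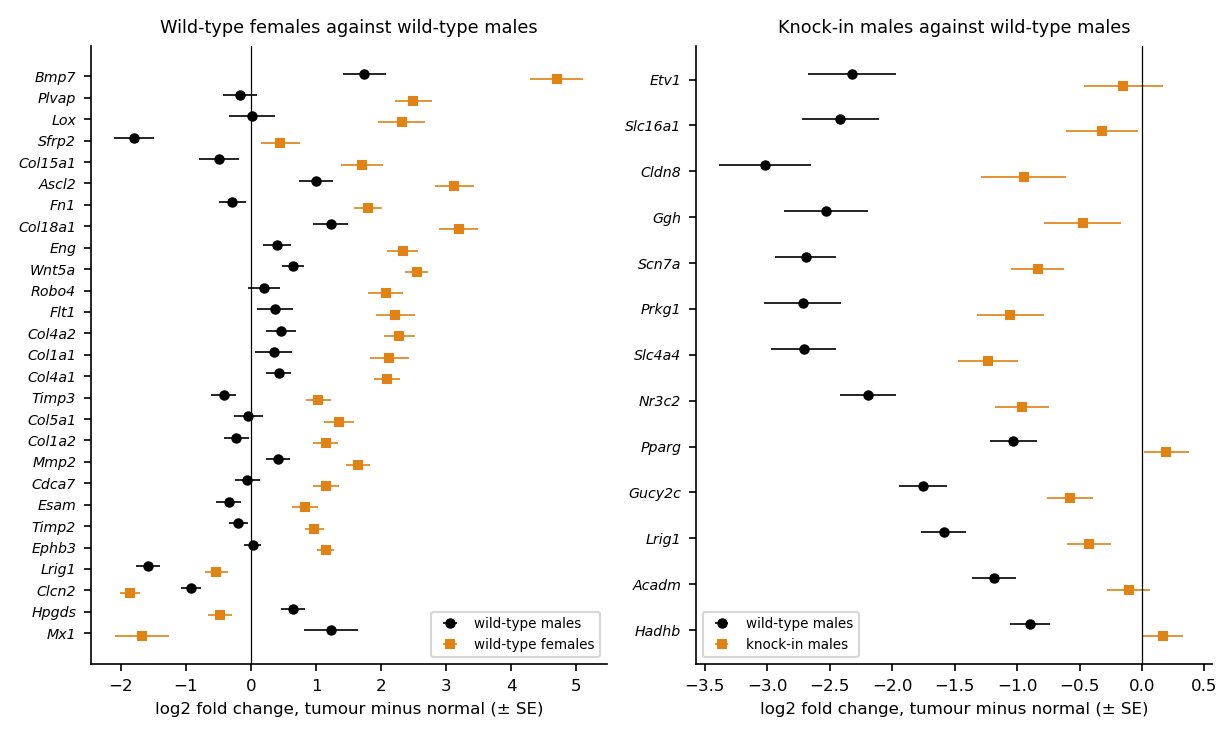
Log2 fold change of tumour against normal colon, with SE, for list genes whose tumour effect differed from that of wild-type males (black) in wild-type females (left, 27 genes) or knock-in males (right, 13 genes). In females 24 of the 27 effects lie to the right of the male effect, and in knock-in males all 13 do.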

How the data were processed

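RNA of mouse colon was freed of ribosomal RNA with RNase H (RiboErase), copied with random hexamers and sequenced on a NovaSeq, per the labels' protocols. The authors deposited raw counts per gene, 24062 genes in 21 columns, and Trimmomatic, HISAT2, featureCounts, DESeq2 and the build mm10 are named in the submitters' processing notes. Roles, versions, annotation and strand setting are not given in the sources used here. Reads from near-identical paralogs, overlapping genes or antisense partners can therefore be split or merged in the counts. The header gives 2 columns of knock-in female normal colon the same name, and these were used as replicates of that group without a number. The authors' deposited table of DESeq2 comparisons was not used.

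Groups were taken from the sample labels. Counts were tested with edgeR 4.0.16 (R 4.3.3, quasi-likelihood F test, robust, two-sided, TMM scaling) in 1 fit over all 7 groups with 1 coefficient per group. The edgeR filter on low counts by group left 15936 genes, and a gene was called at a Benjamini-Hochberg adjusted p under 0.05 over all of them. The prior count was 2, the SE was derived from the log2 fold change and its F statistic, and the floor was 3 counts. The test was run on simulated data with the same spread in every group and without pairing. That run does not cover groups of unequal spread or libraries paired by number. Total counts ranged from 3414123 to 20944610 per wild-type male library, which sets the precision of low values.

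The comparison, the 41 gene lists (784 genes, of which 772 were found under the same symbol, 6 under an older symbol and 6 not) and the genes named were chosen with earlier results of these data known. The naming rule took App, then the 10 largest increases and the 10 largest decreases among called genes with a mean of at least 100 counts in 1 group and no overlap between the groups, without predicted, ribosomal or mitochondrial names. It also took up to 4 called members per list by mean CPM and up to 2 that went against their list. The rule gave 167 of the 248 genes followed through the alternatives, and the others, such as uncalled markers and genes whose effect differed between groups, were added after their values were seen. Some genes that the rule names are not reported here. Lists were described by counts and medians, without a set test.

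Replicate numbers were checked for pairing. After subtraction of group means, tumour and normal libraries of the same number correlated across genes at r = 0.169, 0.174 and 0.215. All pairs of different numbers had negative r. Deviations from a group mean cancel within the group, so positive r at the same number pushes the other pairs to negative r. The negative values are therefore no further sign of pairing. The pairing comes from this check alone, since the descriptions give each library a code of its own. Alternatives were DESeq2 1.42.0 and its size factors, library totals, limma 3.58.1 voom with quality weights, other filters, only the compared groups, a replicate block, offsets for GC content and length, and each library left out in turn. List counts with a library left out were chosen after seeing the data. Promoter windows came from RefSeq on GRCm38.p6. Tables and figures used Python 3.11.15, pandas 2.3.3, scipy 1.17.1 and matplotlib 3.10.9.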

Additional observations from a re-analysis of the deposited data

Results flagged for a closer look

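The following results stood out because the test of the difference found another tumour effect in wild-type females or in knock-in males than in wild-type males. The tumour effect differed for 179 genes between wild-type females and wild-type males, and for 240 genes between knock-in and wild-type males. Both comparisons share the wild-type male libraries. Wnt5a, a ligand of non-canonical Wnt signalling, had a log2 tumour effect larger by 1.90 in females (edgeR adjusted p = 0.000681, past the threshold in 16 of 16 alternatives). Col18a1, a basement membrane collagen, had an effect larger by 1.97 in females (edgeR adjusted p = 0.0241, 12 of 16 alternatives). Lrig1, a negative regulator of EGF receptors in crypt stem cells, had a log2 tumour effect of -1.59 in males and -0.53 in females, a smaller decrease by 1.06 (edgeR adjusted p = 0.0478, 7 of 16 alternatives, and 0.122 with the replicate number as a block). In knock-in males it was -0.43, a difference of 1.16 from wild-type males (edgeR adjusted p = 0.0411, 8 of 16 alternatives, and 0.0547 with the block). The effect on Mx1 differed by -2.91 between females and males (edgeR adjusted p = 0.0246, 12 of 16 alternatives, and 0.139 with the block). In knock-in males the effect on the glial sodium channel gene Scn7a differed from that in wild-type males by 1.86 (edgeR adjusted p = 0.0406, 8 of 16 alternatives, and 0.0506 with the block). For Chrm2 this difference was 3.11 (edgeR adjusted p = 0.0474, 6 of 16 alternatives).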

How the results depend on the processing

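With all libraries kept, the 5697 calls between tumour and normal colon became 4940 (replicate block) to 7243 (limma voom, 3634 higher and 3609 lower). With 1 library left out they ran from 3659 to 5373 in total, 1448 to 2337 higher and 2211 to 3036 lower. Without normal colon 3, 54.8% of the higher and 70.8% of the lower calls remained. No gene was called in the opposite direction in any of the 16 alternatives. Of the 234 named genes called, 159 kept their call and direction under every alternative that tested them. The block ended 18 of these calls, among them App, Irx4, Smoc2, Apoe and Mx1, added Notum, Mmp7, Mmp10, Mmp13, S100a9 and Pdgfra, and changed no other call on a named gene. A fit of only the wild-type male libraries ended 25 of these calls. Among them were Cxcl1, Cxcl2, Il1b, Ereg, Nts, Apoe, Sp5, Dkk2, Wnt5a and Col18a1. That fit added Mki67, Slc9a3 and Pdgfra. With 1 library left out the log2 fold change ran from -0.47 (without tumour 2, edgeR adjusted p = 0.8) to 4.30 for Il6 and from -0.28 to 0.0174 (without normal colon 2, edgeR adjusted p = 0.972) for Plvap, neither of them called with all libraries.

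The 179 genes that differed between the sexes became 312 with library totals, 577 by DESeq2, 1467 by limma voom, 48 with the replicate block, 51 with the block and GC and length offsets, and 45 to 544 with 1 library left out. The 240 that differed between genotypes became 95 without a filter, 408 at a mean of at least 50 counts, 1326 by DESeq2, 1194 by limma voom, 1 with only the compared groups, 0 with the offsets (2882 at an unadjusted p under 0.05), 3 with the block and offsets, 193 with the block, and 0 to 416 with 1 library left out. The cause was not tested. The median of 9 of 41 lists changed sign under some alternative. Library totals moved the median of all genes by 0.041. Depth limits tumour 2 most, where 3 counts are 0.872 CPM.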

Other observations

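Gene families were looked at after their values were seen, beside the 16.5% of all genes called higher and 19.3% called lower. Some of their members, such as Ces1g, Sox10, Sox17 and Mcm2, also belong to the lists above, and their calls are the same ones. Enzymes that conjugate or hydrolyse drugs, steroids and lipids lay mostly on the lower side. Of 8 UDP-glucuronosyltransferase genes 7 were called lower (median log2 fold change -2.15), although the Ugt1a members share exons and their counts are not independent. Of 12 carboxylesterase genes 9 were called lower and 1, Ces1g, higher (median -2.40), with Ces2a at -3.81 and Ces2c at -3.62. Of 8 sulfotransferase genes 4 were called lower (median -2.53), Sult1d1 at -3.41 and Sult1a1 at -3.30, and of 22 genes of cytochrome P450 family 2 there were 13 lower and 1 higher (median -2.24). All 5 butyrophilin-like genes tested, Btnl1, Btnl2, Btnl4, Btnl6 and Btnl9, were called lower (median -3.03). Of 30 complex I subunit genes of the Ndufa, Ndufb and Ndufs series 16 were called lower and 1, Ndufa4, higher (median -0.49). Of 4 Kcna potassium channel genes 3 were called lower, Kcna1 at -5.19, Kcna2 at -4.55 and Kcna6 at -3.67.

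Families of transcription factors differed among themselves. Of 15 Sox genes 9 were called higher, Sox17 at 2.67 and Sox11 at 2.36 among them, and 1, the glial Sox10, lower at -3.73 (median of the family 0.74). Of 7 T-box genes 4 were called higher, Tbx20, Tbx1, Tbx3 and Tbx4, and 1, Tbx5, lower at -4.58. Of 4 Irx genes 1, Irx4, was called higher. Of 6 Ifitm genes, which encode interferon-induced membrane proteins, 4 were called higher (Ifitm1, Ifitm2, Ifitm3 and Ifitm6, median of the family 1.68). Of subunit genes of other complexes, those called higher were 12 of 20 of the regulatory part of the 26S proteasome (median 0.34), 7 of 9 Sf3 splicing factor genes (median 0.40), 4 of 6 Mcm helicase genes (median 0.68), 4 of 8 CCT chaperonin genes (median 0.42) and 3 of 12 genes of initiation factor 3 (median 0.042).

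Libraries numbered 1 stood apart from the others in both tissues for 3 genes outside the naming rule. How many other genes do so was not counted. Ltf, the gene of lactoferrin, stood at 184, 4.56 and 0.398 CPM in normal colon and 217, 5.53 and 8.19 CPM in tumours. Ppbp, a platelet chemokine gene, stood at 38.6, 1.72 and 0.298 CPM in normal colon and 58.1, 4.94 and 3.22 CPM in tumours. Col17a1, a hemidesmosome collagen gene, stood at 39.8, 6.51 and 5.47 CPM in normal colon and 30.0, 9.02 and 7.27 CPM in tumours. In all 3 the libraries numbered 1 were the highest of both groups, and the edgeR adjusted p values of the tumour effect were 0.929, 0.819 and 0.94.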
